A study of Mus musculus with 12 samples.

Results

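The genes described here are 35 meiotic prophase genes, listed by symbol for their roles in the synaptonemal complex, meiotic cohesin and recombination. They were followed in whole testes at ages that usually precede the first meiotic prophase. Of the 35 symbols, 34 were found among the 49585 genes in the count tables. Spata22 was the exception: its locus is counted there within Gm49340, a gene model that also spans Olfr20, so no value is given for Spata22. The question addressed is how far these genes were already transcribed at postnatal day 2 (P2) and day 7 (P7), and how their levels differed between Pramef12 Null and Pramef12 Het testes.

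The 12 samples formed 4 groups of 3: P2 Pramef12 Het, P2 Pramef12 Null, P7 Pramef12 Het and P7 Pramef12 Null. Pramef12 Null mice (Pramef12-/-) are homozygous and Pramef12 Het mice (Pramef12+/-) heterozygous for a CRISPR/Cas9 deletion that follows the Pramef12 start codon, on a B6D2F1 background. The control animals therefore carry a mutant allele as well, and wild-type testes were not analysed here. Each sample is poly(A) RNA of a whole testis preparation, with germ cells, Sertoli cells and interstitial cells together, and p-values measure the spread between these samples. By the study's reporting summary a replicate is an animal or a single testis of an animal, and the labels do not say which applies here. In bulk RNA of this kind, fewer cells of a type and less RNA per cell cannot be told apart.

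In meiotic prophase, homologous chromosomes are cut, aligned, joined along their length and recombined. Cohesin rings hold sister chromatids on an axis, the recombination machinery makes and repairs the DNA breaks on that axis, and the synaptonemal complex zips the homologs together. At P2 the germ cells of the mouse testis are gonocytes and early spermatogonia, and by P7 they are undifferentiated and the first differentiating spermatogonia, with leptotene spermatocytes appearing later. Several meiotic genes are known to be transcribed in spermatogonia before their proteins act, and in other cells many are held silent by a Polycomb complex that contains MGA-MAX and E2F6.

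Pramef12, the edited gene, separated the groups as labelled. Its level ranged from 4.27 to 7.77 FPKM in P2 Pramef12 Het and from 0.858 to 2.21 FPKM in P2 Pramef12 Null testes, and from 25.3 to 34.5 against 7.32 to 11.04 FPKM at P7. FPKM here are gene counts divided by the deposited exon length in kilobases and by the library size, the latter TMM-normalised over the 12 samples, so that levels can be compared between genes. Total counts ran from 14438781 to 21043245 per sample, with a median of 18046858. Of 15 markers of late spermatocytes and spermatids, 10 had 10 counts or fewer in every library and 1, Piwil1, reached a mean of 1 FPKM in any group. These late markers cannot show whether cells of early prophase were present. In the paper's P7 single-cell data, a differentiated spermatogonial state had high Hormad1 and Prdm9, which it calls early meiotic genes. The germ cell markers were present in every group, with a summed level over 20 genes from 113 to 154 FPKM in P2 Pramef12 Null testes, the lowest group, and from 396 to 491 FPKM in P7 Pramef12 Het testes, the highest.

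The members' promoters were searched for 2 short motifs of the Polycomb complex named above: the E-box CACGTG, bound by MGA-MAX, and TCCCGC, the core of the E2F6 motif. Sequences are RefSeq promoters of GRCm38.p6, covering 250 bases before to 50 bases after a start site, and 28 of the 34 members had at least 1, for 32 promoters in all, since some members have 2 start sites with overlapping windows. The 5 shown here set motif content against the P7 result: Sycp1 and M1ap, which were lower in Pramef12 Null testes, Sycp3, which was not, Mei1, which had the largest fall, and Mlh3, whose level differed least. Each run gives the 250 bases before the start site, 5′ to 3′ on the strand of the gene, with E-boxes and E2F6 cores of either strand in capitals.
Sycp1 promoter: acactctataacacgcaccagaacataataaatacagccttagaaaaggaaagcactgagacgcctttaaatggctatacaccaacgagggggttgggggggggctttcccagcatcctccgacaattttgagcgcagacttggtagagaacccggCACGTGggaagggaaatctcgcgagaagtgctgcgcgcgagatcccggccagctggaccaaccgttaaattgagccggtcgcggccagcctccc
Sycp3 promoter: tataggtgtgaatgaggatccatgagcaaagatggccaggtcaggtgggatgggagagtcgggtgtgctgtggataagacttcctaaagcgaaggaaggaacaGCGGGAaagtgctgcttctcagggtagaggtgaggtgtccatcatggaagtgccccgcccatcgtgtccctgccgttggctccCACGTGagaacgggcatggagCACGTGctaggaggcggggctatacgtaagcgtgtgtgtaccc
M1ap promoter: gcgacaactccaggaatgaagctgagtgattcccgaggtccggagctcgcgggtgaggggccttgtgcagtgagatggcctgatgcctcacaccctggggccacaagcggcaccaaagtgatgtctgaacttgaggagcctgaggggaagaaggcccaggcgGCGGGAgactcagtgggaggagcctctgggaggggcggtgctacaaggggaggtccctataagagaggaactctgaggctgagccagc
Mei1 promoter: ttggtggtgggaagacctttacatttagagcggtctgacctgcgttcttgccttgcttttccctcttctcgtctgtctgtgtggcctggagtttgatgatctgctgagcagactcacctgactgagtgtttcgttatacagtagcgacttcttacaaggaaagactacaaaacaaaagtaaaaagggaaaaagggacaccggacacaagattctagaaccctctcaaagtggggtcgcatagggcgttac
Mlh3 promoter: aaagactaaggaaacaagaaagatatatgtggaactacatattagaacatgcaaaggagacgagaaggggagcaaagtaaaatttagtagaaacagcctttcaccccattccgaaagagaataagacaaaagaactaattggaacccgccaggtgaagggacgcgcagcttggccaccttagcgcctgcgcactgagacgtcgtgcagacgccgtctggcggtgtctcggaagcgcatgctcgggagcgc
The Sycp1 run lies at chr3:102936101-102936350 on the minus strand and holds an E-box whose first base is 94 bases before the start site. Its E2F6 core begins after the start site, outside the run shown. The Sycp3 run, at chr10:88459337-88459586 on the plus strand, holds E-boxes at positions -64 and -43 and an E2F6 core at -147, read on the opposite strand. The M1ap run, at chr6:82946672-82946921 on the plus strand, holds an E2F6 core at -88, also on the opposite strand, and no E-box. The Mei1 run (chr15:82082226-82082475, plus strand) and the Mlh3 run (chr12:85270592-85270841, minus strand) hold neither. The Mei1 start site of RefSeq falls inside the gene model used for counting, which begins upstream of it at chromosome 15 position 82069997, so other starts of Mei1 were not searched.

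Both motifs were more frequent in the members' promoters than in all promoters of the table. On either strand, the E-box was found in 9 of 32 member promoters (28.1%), against 7.15% of all 32851 promoters, and the E2F6 core in 20 (62.5%), against 20.0%. All 9 promoters with an E-box also held an E2F6 core, and 1.99% of all promoters held both. The member promoters were also richer in CpG, with a median of 19.5 CpG dinucleotides per 300 bases against 7 in all promoters, and both motifs contain a CpG. Among promoters of members that were lower in P7 Pramef12 Null testes, 6 of 20 held the E-box and 12 of 20 the E2F6 core. Among those of members that did not pass the test, the counts were 3 of 12 and 8 of 12. These are matches of letters in a window, given as a description.

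Transcripts of most members were already present in P2 Pramef12 Het testes. The median over the 34 members was 1.59 FPKM, 23 had a mean of at least 1 FPKM and 7 of at least 5 FPKM. Trip13, an ATPase that removes HORMA-domain proteins from the chromosome axis, had the highest level, with 11.6, 10.7 and 11.3 FPKM in the 3 samples. Tex15 followed with 9.74 ± 1.08 FPKM, Syce2 with 8.85 ± 1.12, Stag3 with 8.53 ± 0.575 and Smc1b with 7.94 ± 1.06 FPKM (SD, n = 3), and neighbours in this order lay within their spread of each other. At the low end were Spo11, the enzyme that cuts the DNA, at 0.233 ± 0.0779 FPKM, Meiob, a single-strand DNA-binding protein of recombination foci, at 0.125 ± 0.00655 FPKM, and Mei4, required for break formation, at 0.106 ± 0.0415 FPKM (SD, n = 3). Meiob had 2 to 16 counts per library and failed the filter on low counts, which left 33 members tested in each comparison.

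By P7 the levels in Pramef12 Het testes had spread further apart. The members' median was 3.24 FPKM, and 9 had a mean of at least 10 FPKM, against 1 at P2. Stag3, the cohesin subunit specific to meiosis, was highest at 24.3 ± 1.90 FPKM (SD, n = 3), above the next member by more than the spread. Syce1, Syce2, Trip13, Smc1b, Tex15, Tex11 and M1ap followed between 15.9 and 13.9 FPKM and did not differ from their neighbours beyond their spread, and Sycp1 stood at 10.7 ± 1.67 FPKM.

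**Figure D1:**
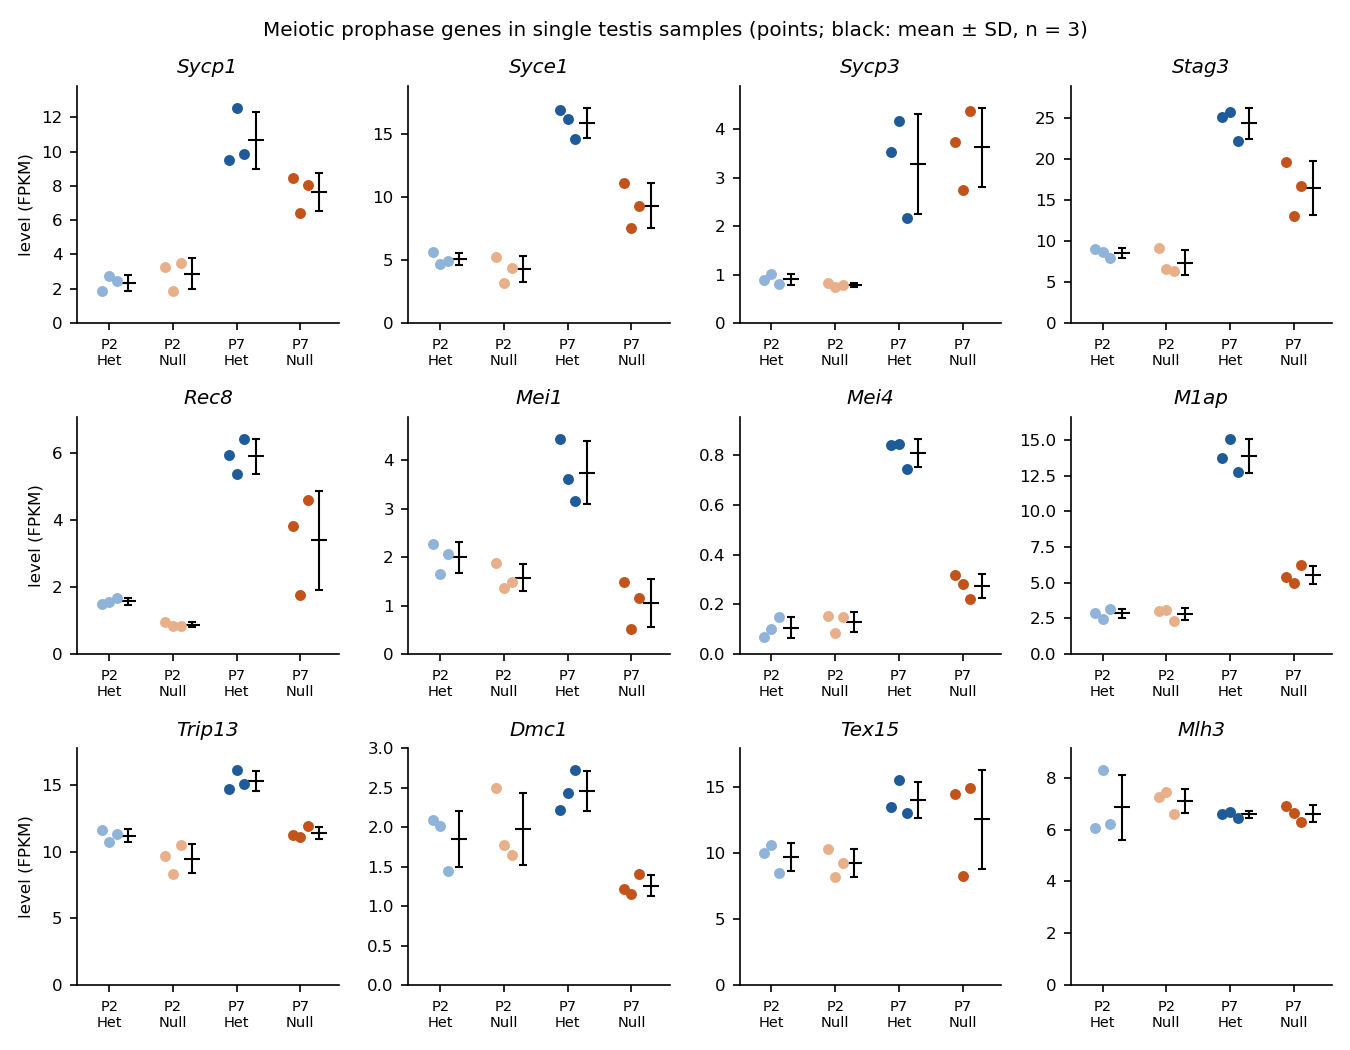
Levels of 12 members in FPKM (vertical axes, each starting at 0) in single testis samples of the 4 groups; points are samples and black marks are the mean ± SD (n = 3). The 3 P7 Pramef12 Null samples lie below the 3 P7 Pramef12 Het samples for every gene shown except Sycp3, Tex15 and Mlh3.

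With age, transcripts of 24 of the 33 tested members rose from P2 to P7 in Pramef12 Het testes (edgeR quasi-likelihood test, Benjamini-Hochberg adjusted P below 0.1). Of all genes tested, 26.3% were higher and 26.1% lower at P7. The members' median log2 fold change was 0.82, and that of all genes was 0.0035. No member was lower in edgeR, with 0 at an unadjusted p under 0.05 and 0 in DESeq2. The 3 P7 samples all lay above the 3 P2 samples for 24 of the 33 members, against 29.9% of all genes tested. This rise is relative to total testis RNA: with scaling on germ cell marker genes instead, 11 members were higher and 12 lower, where 2.31% and 88.8% of all genes were. The median of all genes on that scale was -1.01, and that of the members -0.21. The calls of Syce3, Spo11, Hsf2bp and Msh5 were each lost when 1 of several samples was left out, and 20 of the 24 calls were made in all 6 such fits.

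The synaptonemal complex genes rose together, with 7 of 7 higher at P7 and a median log2 fold change of 1.498, which stayed positive when scaled on germ cell genes (0.47). Sycp1, which encodes the transverse filament that bridges the homologs, went from 1.84, 2.74 and 2.47 FPKM at P2 to 9.52, 12.6 and 9.87 FPKM at P7 in Pramef12 Het testes. The groups were far apart, and the log2 fold change was 2.15 ± 0.157 (SE). The axial element genes Sycp3 and Sycp2 had log2 fold changes of 1.83 and 1.498. Among the central element genes, Syce1 rose by 1.63 and Tex12 by 1.04, whereas Syce2 (0.82) and Syce3 (0.75) rose less and had negative values on the germ cell scale.

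Of the meiotic cohesin genes, 3 of 4 rose, with a median of 1.20 (0.18 on the germ cell scale). Rec8, the kleisin of meiotic cohesin, had a log2 fold change of 1.88, Stag3 of 1.49 and Smc1b of 0.90, while Rad21l, the other meiotic kleisin, had 0.39 ± 0.231 (SE, adjusted p = 0.197 from edgeR). All 7 genes of break formation and the axis rose, with a median of 0.88 that turned to -0.16 on the germ cell scale. The range among them was wide. Mei4 had the largest rise of all members, from 4, 6 and 11 counts at P2 to 69, 64 and 65 counts at P7, a log2 fold change of 2.85 ± 0.280 (SE). Trip13, by contrast, rose by 0.43, and on the germ cell scale its value was -0.59.

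Genes that act later in recombination were split. M1ap, which works with the crossover proteins that stabilise joined homologs, rose from 2.90, 2.48 and 3.16 FPKM to 13.7, 15.1 and 12.8 FPKM, a log2 fold change of 2.25 ± 0.114 (SE). Tex11, an X-linked crossover gene, rose by 1.83 and Rnf212, a crossover factor of the SUMO ligase type, by 1.13. The mismatch-repair homologs behaved differently: Mlh3, which acts in crossover resolution, had a log2 fold change of -0.09, Msh4 of 0.23, and Msh5, its partner, rose by 0.48. The helicase gene Hfm1 had 0.09 ± 0.197 (SE). In strand exchange, Tex15 (0.51) and Hsf2bp (0.43) rose, while Dmc1, the meiotic recombinase, had 0.40 and its cofactors Psmc3ip and Mnd1 had -0.08 and -0.03 and did not pass the test. On the germ cell scale, all 5 tested strand exchange genes were lower at P7, where 88.8% of all genes were. The median of the 7 crossover genes turned to -0.55 there, against -1.01 for all genes. Meioc rose by 1.74 and Ythdc2, which acts with it in an RNA-binding complex that moves germ cells into the meiotic programme, had 0.18 ± 0.0865 (SE, adjusted p = 0.118 from edgeR). Majin, which tethers telomeres to the nuclear envelope, had 0.39 ± 0.374 (SE).

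**Figure D2:**
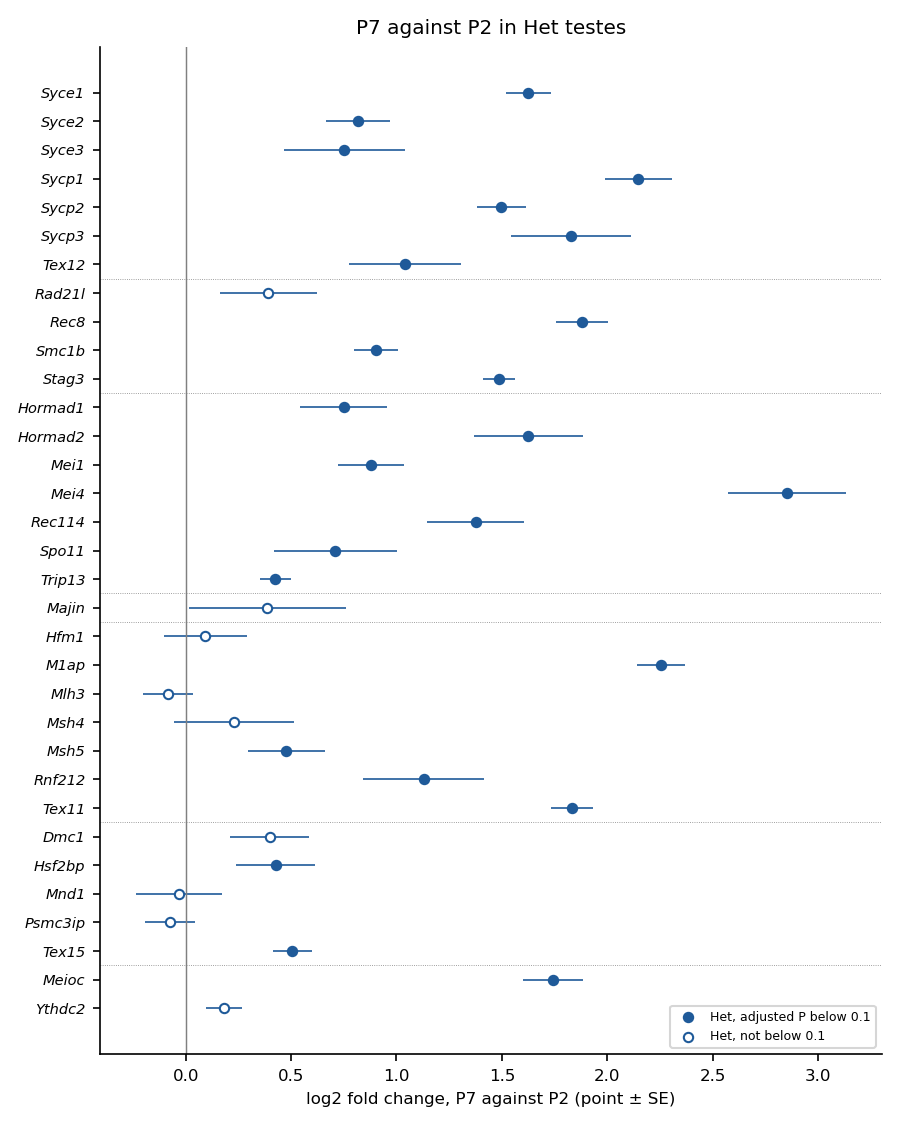
Log2 fold change from P2 to P7 in Pramef12 Het testes (horizontal axis, point ± SE) for the 33 tested members, grouped by role between dotted lines; filled points have an edgeR adjusted P below 0.1. The 7 synaptonemal complex genes and the 7 genes of break formation and the axis are all filled and right of 0. Mlh3, Psmc3ip and Mnd1 sit at about 0. When scaled on germ cell genes, 12 of the 33 were lower, where 88.8% of all genes were.

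At P2, no member differed between Pramef12 Null and Pramef12 Het testes at adjusted P below 0.1 in edgeR, and none did in DESeq2. Of all genes tested, 0.0363% were lower and 0.00605% higher. At an unadjusted p under 0.05, 6 of the 33 members were lower and 0 higher, where 3.81% of all genes were lower and 2.23% higher. The members' median log2 fold change was -0.13, and 24 of 33 had a negative value. The Pramef12 Null samples lay wholly below the Pramef12 Het samples for 4 members, Rec8, Trip13, Mnd1 and Hfm1, against 6.64% of all genes tested. These 4 are named after their values were seen.

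Rec8 had the smallest p of the members at P2. Its level was 1.49, 1.55 and 1.68 FPKM in Pramef12 Het and 0.963, 0.822 and 0.849 FPKM in Pramef12 Null testes. The groups did not overlap, and the log2 fold change was -0.84 ± 0.176 (SE, adjusted p = 0.255 from edgeR). Without the filter on low counts, where fewer counts are needed to be tested, its adjusted p was 0.0539. Hfm1 had -0.71, Mnd1 -0.62 and Trip13 -0.24 on the log2 scale, all with adjusted p between 0.728 and 0.783. For M1ap, Meioc and Mlh3 the log2 difference at P2 was -0.014, 0.021 and 0.049, with 95% intervals of -0.39 to 0.36, -0.45 to 0.49 and -0.22 to 0.32. When scaled on germ cell genes, 4 members (Sycp1, Psmc3ip, Tex15 and Mlh3) were higher in P2 Pramef12 Null testes, where 58% of all genes were.

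At P7, 20 of the 33 tested members were lower in Pramef12 Null testes and 0 were higher (edgeR, adjusted P below 0.1). Of all genes tested, 13.3% were lower and 7.47% higher. The members' median log2 fold change was -0.66, against 0.012 for all genes, and 31 of 33 had a negative value. DESeq2 called 19 members lower (11.2% of all genes it tested) and 0 higher, without Hormad1 (adjusted p = 0.110) and Hfm1 (0.105) and with Rec8 added. At an unadjusted p under 0.05 edgeR had 24 lower and 0 higher, where 17.3% of all genes were lower and 12.3% higher. The Pramef12 Null samples lay wholly below the Pramef12 Het samples for 26 of 33 members, against 19.7% of all genes tested. The labels do not say what the sample numbers stand for, and samples of the same number were taken as paired at P7 by a rule on their correlation. With the number as a replicate block 24 members were lower (16.8% of all genes), the 4 added being Tex12, Rec8, Majin and Hsf2bp. The summed level of the 34 members was 205, 217 and 185 FPKM in Pramef12 Het and 145, 111 and 138 FPKM in Pramef12 Null testes.

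**Figure D3:**
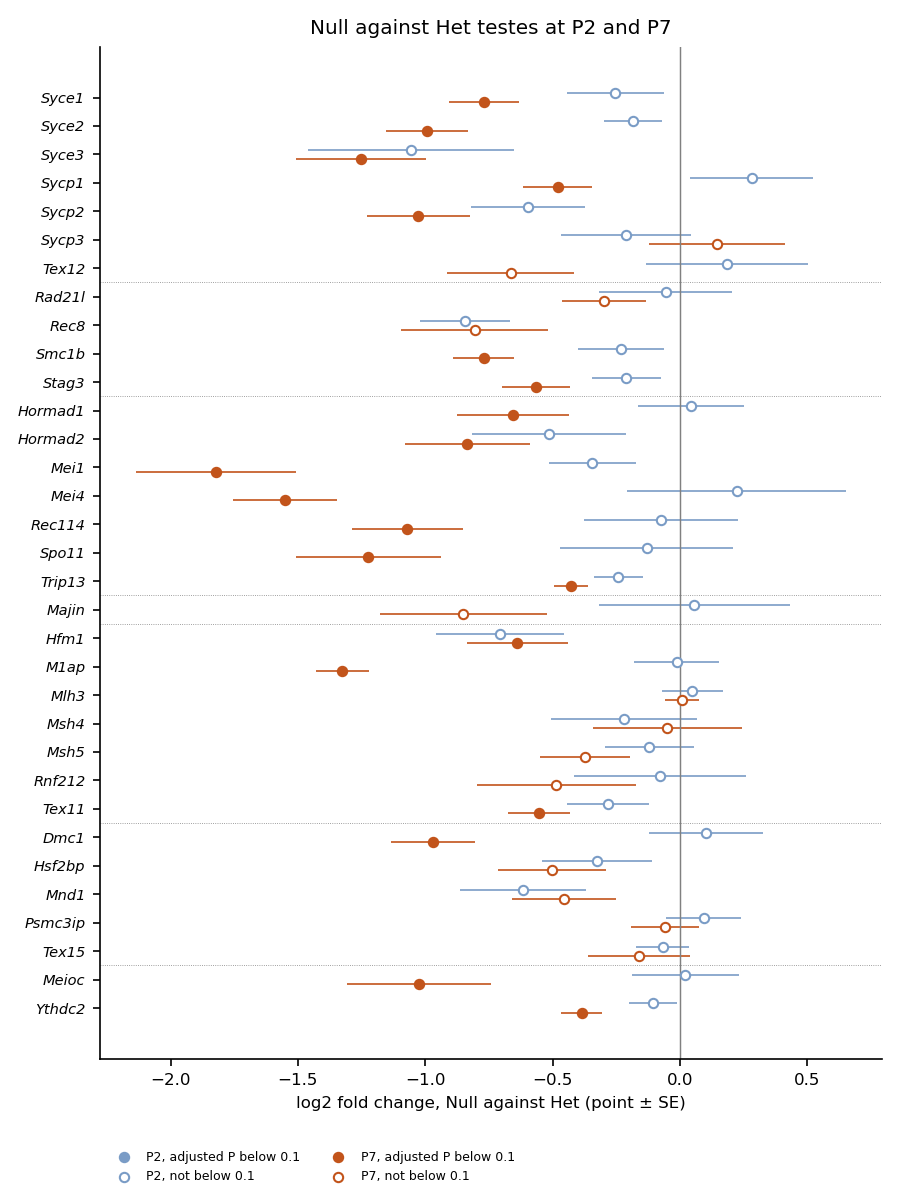
Log2 fold change of Pramef12 Null against Pramef12 Het testes (horizontal axis, point ± SE) at P2 (blue) and P7 (orange) for the 33 tested members, grouped by role between dotted lines; filled points have an edgeR adjusted P below 0.1. No P2 point is filled, 20 P7 points are filled and left of 0 with scaling on total RNA, and Mei1 at P7 lies farthest to the left.

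All 7 genes of break formation and the axis were lower at P7, with a median log2 fold change of -1.07. On the germ cell scale their median was -0.34, with 2 of 7 lower. The median of all genes on that scale was 0.76, and 1.74% were lower. Mei1, a gene required for meiotic DNA breaks, had the largest fall of all members. Its level was 4.44, 3.62 and 3.15 FPKM in Pramef12 Het and 1.48, 0.513 and 1.159 FPKM in Pramef12 Null testes. The groups did not overlap, and the highest Pramef12 Null sample was under the lowest Pramef12 Het sample by a wide margin. The level was 3.54-fold lower, a log2 fold change of -1.82 ± 0.314 (SE, adjusted p = 0.0105 from edgeR).

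Mei4 and Rec114, which form a complex that is needed for SPO11 to cut, fell by 1.55 and 1.07 on the log2 scale. Mei4 had 69, 64 and 65 counts in the Pramef12 Het libraries against 28, 22 and 15 counts in the Pramef12 Null libraries. For Rec114, 26.9% of the exon bases are shared with Nptn on the opposite strand, and counting took no account of strand, so reads of the 2 genes cannot be told apart there. Spo11 itself fell by 1.22, on 27 to 35 counts per Pramef12 Het library and 8 to 18 per Pramef12 Null library. The axis genes Hormad1 and Hormad2, whose proteins mark unsynapsed chromosomes, fell by 0.66 and 0.84.

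Trip13 showed a smaller and tighter difference. It had 14.7, 16.2 and 15.1 FPKM in Pramef12 Het and 11.2, 11.1 and 11.9 FPKM in Pramef12 Null testes, so that the lowest Pramef12 Het sample exceeded the highest Pramef12 Null sample. The log2 fold change was -0.43 ± 0.0659 (SE, adjusted p = 0.00768 from edgeR). With scaling on germ cell genes the value for Trip13 was 0.32, and it did not pass the test.

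Of the synaptonemal complex genes, 5 of 7 were lower in P7 Pramef12 Null testes, with a median of -0.77 (-0.05 on the germ cell scale). Syce1, a central element gene, had 16.9, 16.2 and 14.6 FPKM in Pramef12 Het and 11.1, 7.56 and 9.25 FPKM in Pramef12 Null testes. Syce2, its neighbour in the central element, had 16.4, 18.8 and 12.4 FPKM against 8.95, 8.15 and 6.74 FPKM. Neither pair of groups overlapped, and the log2 fold changes were -0.77 ± 0.137 and -0.99 ± 0.160 (SE, adjusted p = 0.0115 and 0.00873 from edgeR). The level of Syce2 in P7 Pramef12 Null testes, 7.95 ± 1.12 FPKM, was within the spread of its level in P2 Pramef12 Het testes, 8.85 ± 1.12 FPKM (SD, n = 3).

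Syce3 fell by 1.25 and Sycp2 by 1.03, and Sycp1 fell by 0.48 to 8.46, 6.40 and 8.05 FPKM. Sycp1 thus stayed above each P2 sample of either genotype, the highest of which was 3.50 FPKM. Tex12 had -0.66 ± 0.249 (SE) and an adjusted p of 0.119 from edgeR.

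Sycp3, the most used marker of the axial element, was the exception in this group. It had 3.53, 4.17 and 2.16 FPKM in P7 Pramef12 Het and 3.74, 2.76 and 4.39 FPKM in P7 Pramef12 Null testes. The groups overlapped throughout, with the highest sample in Pramef12 Null and the lowest in Pramef12 Het. The log2 fold change was 0.15 with a 95% interval of -0.47 to 0.76, and the adjusted p was 0.765 from edgeR. These values rest on 58 to 101 counts per library, and 52.2% of the exon bases of Sycp3 are shared with Chpt1 on the opposite strand. On the germ cell scale Sycp3 was higher in Pramef12 Null testes, by 0.90 on the log2 scale. The median of all genes on that scale was 0.76, and 80.1% of all genes were higher.

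Among the meiotic cohesin genes, Stag3 and Smc1b were lower and Rec8 and Rad21l did not pass the test, with a median of -0.67 that turned to 0.06 on the germ cell scale. Stag3 had 25.1, 25.7 and 22.2 FPKM in Pramef12 Het and 19.7, 13.0 and 16.7 FPKM in Pramef12 Null testes, a log2 fold change of -0.56 ± 0.133 (SE, adjusted p = 0.0297 from edgeR). Smc1b, the meiotic SMC subunit, had 15.5, 16.0 and 13.7 FPKM against 10.1, 7.29 and 9.06 FPKM, a log2 fold change of -0.77 ± 0.119 (SE, adjusted p = 0.00763 from edgeR). The groups did not overlap for either gene. Rec8 had 5.94, 5.36 and 6.41 FPKM against 3.82, 1.75 and 4.61 FPKM, without overlap, and its log2 fold change of -0.81 ± 0.288 (SE) had an adjusted p of 0.105 from edgeR, or 0.0201 with the replicate block and 0.0234 in DESeq2. Rad21l had -0.30 ± 0.165 (SE).

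Of the 5 tested strand exchange genes, Dmc1 was lower and 4 did not pass the test, with a median of -0.46 (0.27 on the germ cell scale). Dmc1 had 2.22, 2.43 and 2.73 FPKM in Pramef12 Het and 1.22, 1.156 and 1.40 FPKM in Pramef12 Null testes. All 3 Pramef12 Null samples were also below the lowest P2 Pramef12 Het sample, 1.44 FPKM. The log2 fold change at P7 was -0.97 ± 0.164 (SE, adjusted p = 0.0100 from edgeR). Tex15, which is needed to load recombinases, had 13.5, 15.6 and 13.1 FPKM in Pramef12 Het and 14.5, 8.25 and 14.99 FPKM in Pramef12 Null testes. Only Pramef12 Null sample 5 was low, and without it the log2 fold change moved from -0.16 to 0.07. Psmc3ip, the cofactor of DMC1 that pairs with MND1, had 4.35, 4.52 and 4.59 FPKM against 3.87, 4.97 and 4.11 FPKM. Its groups overlapped and the log2 fold change was -0.06 with a 95% interval of -0.36 to 0.25, with 21.2% of its exon bases shared with Mlx on the opposite strand. Mnd1 and Hsf2bp, which brings BRCA2 to meiotic breaks, had log2 fold changes of -0.46 and -0.50, with adjusted p of 0.179 and 0.155 from edgeR. Meiob, which was not tested, had 2 to 6 counts per P7 Pramef12 Het library and 3 to 9 per P7 Pramef12 Null library.

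Of the 7 crossover genes, M1ap, Tex11 and Hfm1 were lower, with a median over the 7 of -0.49 (0.22 on the germ cell scale). M1ap had 13.7, 15.1 and 12.8 FPKM in Pramef12 Het and 5.40, 5.01 and 6.21 FPKM in Pramef12 Null testes. No Pramef12 Null sample came near the Pramef12 Het samples. M1ap was 2.51-fold lower, a log2 fold change of -1.33 ± 0.105 (SE), with the smallest adjusted p of the members, 0.00146 from edgeR. Tex11 had 13.5, 15.7 and 12.6 FPKM against 11.02, 8.07 and 9.40 FPKM, also without overlap, and a log2 fold change of -0.55 ± 0.122 (SE, adjusted p = 0.0238 from edgeR). Hfm1 fell by 0.64 (adjusted p = 0.0714 from edgeR), a call that DESeq2 did not make. Mlh3 had 6.60, 6.69 and 6.45 FPKM against 6.93, 6.63 and 6.28 FPKM, a log2 difference of 0.0065 with a 95% interval of -0.15 to 0.16. The other crossover genes had log2 fold changes of -0.05 (Msh4), -0.37 (Msh5) and -0.49 (Rnf212), and none passed the test.

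Both RNA regulators of the meiotic programme were lower at P7, with a median of -0.71 that turned to 0.03 on the germ cell scale. Meioc had 3.53, 3.25 and 2.98 FPKM in Pramef12 Het and 1.70, 0.858 and 2.26 FPKM in Pramef12 Null testes. Ythdc2 had 3.08, 3.49 and 3.24 FPKM against 2.37, 2.52 and 2.61 FPKM. The groups were apart for both genes, and the log2 fold changes were -1.03 ± 0.282 and -0.39 ± 0.0806 (SE, adjusted p = 0.0490 and 0.0197 from edgeR). Majin, the member of the telomere complex, had 0.794, 0.597 and 0.517 FPKM against 0.428, 0.386 and 0.220 FPKM. Its groups did not overlap either, on 6 to 26 counts per library, and its log2 fold change of -0.85 ± 0.328 (SE) had an adjusted p of 0.127 from edgeR and 0.0833 with the replicate block.

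Part of these calls was lost when single libraries were left out, which also leaves fewer samples to test. P7 Pramef12 Null sample 5 had the lowest value of its group for 22 of 34 members, and P7 Pramef12 Het sample 6 had the lowest of its group for 22 of 34. Without P7 Pramef12 Null sample 5, 17 members were lower, where 9.21% of all genes were. With each of the 6 samples left out in turn, the count of lower members ranged from 14 to 20, and 13 of the 20 calls were made in all 6 fits. Of all genes, 7.17% were lower without Pramef12 Het sample 4 and 7.50% without sample 5, against 13.3% with all 6 samples. For the members too, Pramef12 Het samples 4 and 5 weighed most, with 14 calls left without either. Stag3, Hormad1, Hormad2, Hfm1 and Meioc lost their calls without each of these, Spo11 without sample 4 and Sycp1 without sample 5. Without Pramef12 Null sample 5 the calls of Sycp1, Hormad1, Hormad2 and Hfm1 were lost. The call of Hormad1 was also lost without Pramef12 Het sample 6 or Pramef12 Null sample 4, and that of Hfm1 without Pramef12 Null sample 6. The adjusted p of the lost calls lay between 0.102 and 0.271 in edgeR.

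The difference between the genotype effects at P7 and P2 was fitted as an age-by-genotype term over all 12 samples. It passed for 1 of 33 members, M1ap, whose effect was lower at P7 by 1.31 ± 0.188 (SE) on the log2 scale (adjusted p = 0.0356 from edgeR), and 0 were higher. Of all genes tested, 0.486% were lower and 0.0286% higher, and at an unadjusted p under 0.05, 12 members were lower (8.32% of all genes) and 0 higher. At P2, M1ap had 2.90, 2.48 and 3.16 FPKM in Pramef12 Het and 3.02, 3.11 and 2.33 FPKM in Pramef12 Null testes, so that its groups overlapped at P2 and stood apart at P7. The interaction of M1ap lost its call without P2 Pramef12 Het sample 1 (adjusted p = 0.103 from edgeR), P7 Pramef12 Het sample 4 (0.101) or P7 Pramef12 Het sample 5 (0.106). Scaled on germ cell genes, its value was -0.99 (adjusted p = 0.407 from edgeR). On that scale 0 of 17494 genes passed, so the missing call is not particular to M1ap. Mei4 (-1.77), Mei1 (-1.48), Dmc1 (-1.07) and Syce2 (-0.81) had adjusted p from 0.133 to 0.158 in edgeR, and DESeq2 called Mei1, Dmc1 and Syce2 beside M1ap, where 2.06% of all genes it tested were lower. For the other 19 genes lower at P7, edgeR did not show that the effect differed between the ages.

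The members' levels moved with those of germ cell markers, and what part those markers have in the members' change was not tested. Of 19 tested germ cell markers, 15 were lower and 0 higher in P7 Pramef12 Null testes, with a median log2 fold change of -0.69. Their summed level was 396 to 491 FPKM in Pramef12 Het and 217 to 306 FPKM in Pramef12 Null testes. At P2 the same list had 1 lower and a median of -0.43, with sums of 164 to 188 and 113 to 154 FPKM. Ddx4, an RNA helicase of all germ cells, had 48.2, 49.5 and 37.6 FPKM in P7 Pramef12 Het and 22.9, 17.8 and 17.5 FPKM in P7 Pramef12 Null testes. Several genes of these lists were named by the study from these samples, so their direction is not independent evidence.

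Of 12 markers of differentiating spermatogonia, 11 were lower at P7, with a median of -1.25 and summed levels of 360 to 422 against 243 to 280 FPKM. Stra8, the retinoic acid target that starts the meiotic programme, had 33.7, 29.7 and 31.5 FPKM in Pramef12 Het and 8.21, 4.36 and 15.1 FPKM in Pramef12 Null testes (log2 fold change -1.79 ± 0.347, SE). Of 14 markers of undifferentiated spermatogonia, 8 were lower and 1 higher, with a median of -0.51 and sums of 301 to 356 against 276 to 327 FPKM that overlapped. Sertoli cell markers moved the other way, with 12 of 15 higher, a median of 0.32, and sums of 3291 to 3414 against 4314 to 4670 FPKM. Sox9 had 69.5, 58.7 and 71.0 FPKM against 79.1, 74.8 and 74.5 FPKM (adjusted p = 0.147 from edgeR). The lists for Leydig, peritubular myoid, macrophage and endothelial cells had 1 of 7 higher, 1 of 6 lower, and 0 of 6 in each of the last pair.

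**Figure D4:**
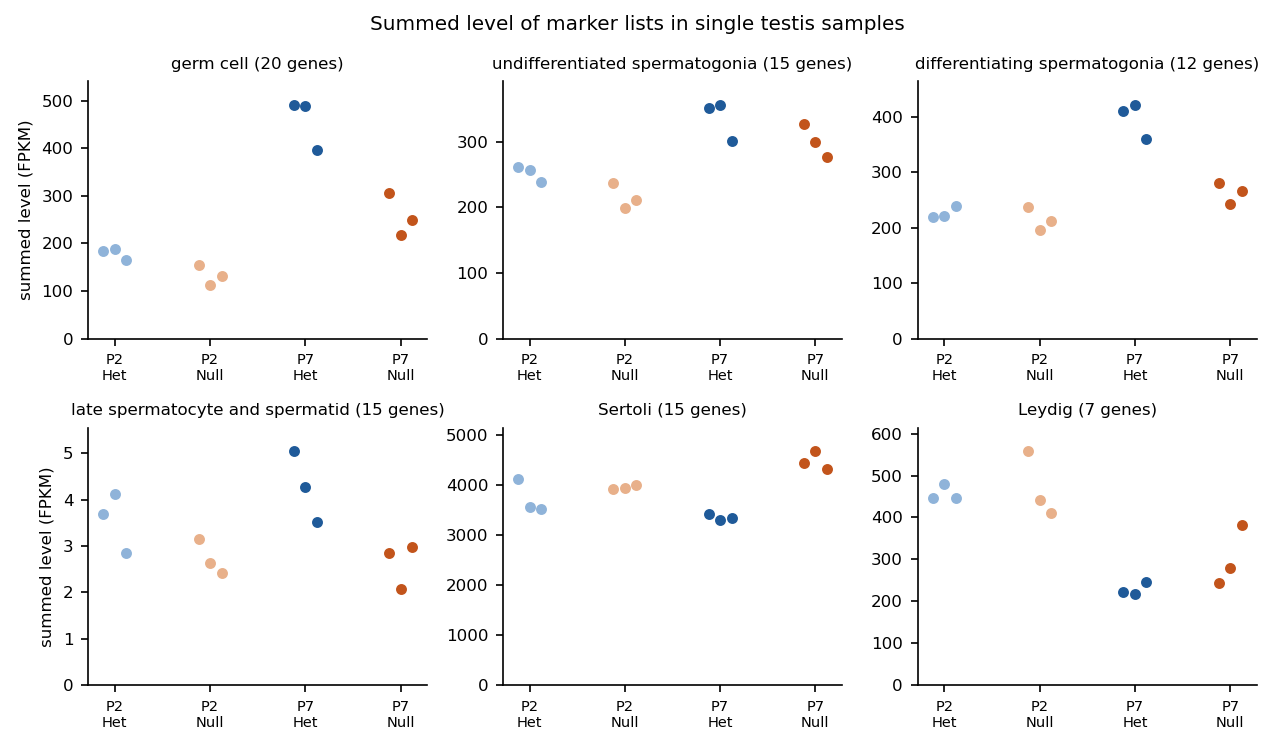
Summed level of marker genes in FPKM (vertical axes, each starting at 0) in single testis samples of the 4 groups, for germ cells, 3 germ cell stages, Sertoli cells and Leydig cells. At P7 the germ cell sums are lower in all 3 Pramef12 Null samples (217 to 306) than in all 3 Pramef12 Het samples (396 to 491), and the Sertoli sums are higher.

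Scaled on the germ cell markers, so that levels are relative to those markers, few members were lower in P7 Pramef12 Null testes. The count was 3 lower and 5 higher, with a median of 0.10, on a scale that moved the median of all genes to 0.76 and had 1.74% of genes lower and 80.1% higher. The 3 lower members were Mei1 (-1.13 ± 0.263, SE), Mei4 (-0.82 ± 0.341) and M1ap (-0.58 ± 0.236), with adjusted p of 0.000172, 0.0234 and 0.0217 from edgeR. The 5 higher were Sycp3 (0.90), Mlh3 (0.75), Psmc3ip (0.71), Msh4 (0.66) and Tex15 (0.56). Scaled on Sertoli cell markers, the count was 31 lower and 0 higher, where the median of all genes was -0.33 and 57% of genes were lower. The germ cell markers already had a median log2 fold change of -0.43 in P2 Pramef12 Null against Pramef12 Het testes. The paper reports comparable germ cell numbers in control and mutant tubules at that age, and substantially fewer germ cells in mutant tubules by P7. What part this has in the members' change was not tested. Whether these markers follow germ cell RNA as a whole was not tested. Values on the germ cell scale, at P2 or P7, are therefore relative to these markers only.

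**Figure D5:**
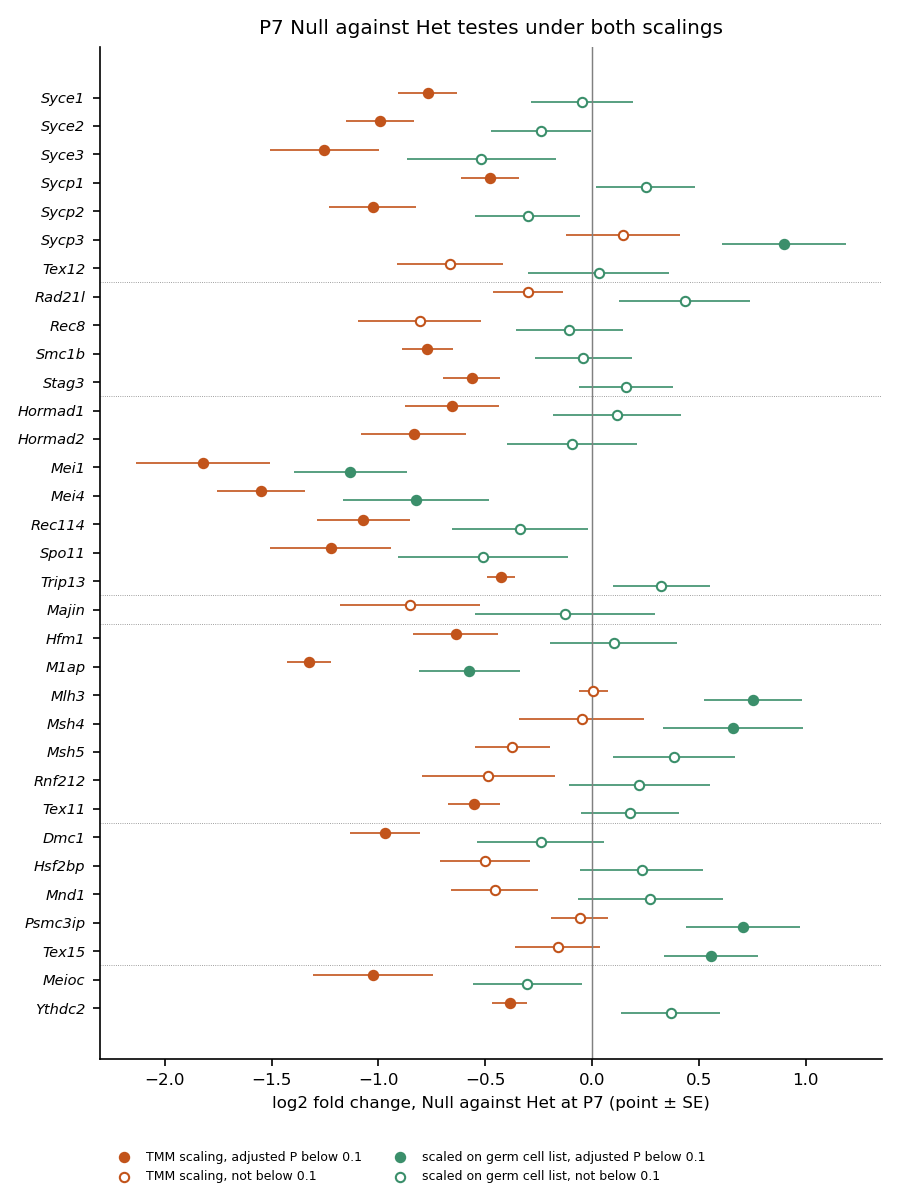
Log2 fold change of P7 Pramef12 Null against Pramef12 Het testes (horizontal axis, point ± SE) with library sizes from TMM (orange) and from germ cell marker genes (green); filled points have an edgeR adjusted P below 0.1. Of the 20 members lower with TMM, Mei1, Mei4 and M1ap stay filled and left of 0 on the germ cell scale. Sycp3, Mlh3, Psmc3ip, Msh4 and Tex15, which had no call with TMM, are filled right of 0 on the germ cell scale, where 80.1% of all genes were higher.

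A further 24 meiotic genes outside the list served for comparison, of which 22 were tested at P7. Of these, 9 were lower and 0 higher in P7 Pramef12 Null testes, where 13.3% and 7.47% of all genes were. Their median log2 fold change was -0.50. The lower genes included Stra8, Meiosin (-1.04), which acts with it, Iho1 (-1.22), a partner of MEI4 and REC114, and Zcwpw1 (-0.88). Stra8 is also counted above among the markers of differentiating spermatogonia. From P2 to P7 in Pramef12 Het testes 15 of the 22 rose and 1, Mybl1, fell, where 26.3% of all genes were higher and 26.1% lower. The members (20 of 33 lower, median -0.66) and these genes were not tested against each other.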

How the data were processed

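Per the labels and the study's methods, poly(A) RNA was reverse transcribed and double-stranded cDNA made into Nextera libraries, which keep no strand. The authors trimmed reads with cutadapt 1.16, aligned them to mm10 with HISAT2 2.1.0, removed multi-mapping reads and counted reads per gene with featureCounts 1.6.1 without strand. They deposited raw read counts, not normalised, with an exon length per gene, for 49585 genes in each of the 12 samples. Symbols came from GENCODE M21, which matched 49326 identifiers and missed 259. Reads of overlapping genes cannot be assigned.

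Counts were tested in R 4.3.3 with edgeR 4.0.16 (filterByExpr with minimum count 10 and minimum total count 15, TMM, glmQLFit and glmQLFTest, two-sided) on the groups of each comparison, or on all 12 samples for the interaction. Adjustment followed Benjamini and Hochberg over all genes tested, with the study's threshold of 0.1. The SE is the log2 fold change divided by the square root of F, and 95% intervals use the t distribution with the degrees of freedom of that F. Levels are FPKM computed from the counts. Fits were tested on simulated data. Alternatives were DESeq2 1.42.0, a fit of all 12 samples, RLE size factors, scaling on the geometric mean of the Sertoli or germ cell markers that had counts in every library, no filter, a threshold of 0.05, the replicate block and leaving out each sample.

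Numbers in the labels (4 to 6 at P7) are shared by both genotypes. After group means were removed, same-numbered P7 samples correlated across genes at 0.126 to 0.357, all over 0.1, and were taken as paired by that rule, although Pramef12 Het sample 5 correlated slightly better with Pramef12 Null sample 4 (0.190) than with number 5 (0.182). No 2 libraries of a group were copies (chi-square per degree of freedom 6.21 to 12.7 over 12 pairs). Depth was 14438781 to 21043245 counts per sample, and precision for members under about 10 counts is limited by counting. The members and gene lists were chosen with earlier results of these data known. Per-sample values are given for the 2 members of each role with the highest P7 Pramef12 Het level, those with the largest and the smallest fall or a rise at P7, and those called in the interaction, and for further members chosen after their values were seen. The roles of M1ap and Majin were assigned after values were seen. The single-cell data of the study were not used here.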

Additional observations from a re-analysis of the deposited data

Results flagged for a closer look

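The genotype effect on M1ap differed between the ages: the log2 fold change of Pramef12 Null against Pramef12 Het testes at P7 minus that at P2 was -1.31 ± 0.188 (SE, adjusted p = 0.0356 from edgeR's interaction test over 12 samples). The effect was -1.33 at P7 and -0.014 at P2. In the 12 fits that each left out 1 sample, the value stayed between -1.42 and -1.22 and the adjusted p between 0.0342 and 0.106. Groups of 3 samples are too small for a test of single outlying samples.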

How the results depend on the processing

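Scaling decided most changes. With scaling on germ cell markers, the count of members lower in P7 Pramef12 Null testes was 3 (5 higher), the P2 count was 4 higher, and the rise with age became 11 higher and 12 lower. The interaction had 0 members, and 0 of all 17494 genes tested. On that scale the P7 log2 values of 16 of the 31 negative members turned positive: Sycp1 (0.25), Stag3 (0.16), Hormad1 (0.12), Trip13 (0.32), Psmc3ip (0.71), Tex15 (0.56), Msh4 (0.66), Tex11 (0.18), Hfm1 (0.10), Ythdc2 (0.37), Tex12 (0.03), Rad21l (0.43), Mnd1 (0.27), Hsf2bp (0.23), Msh5 (0.38) and Rnf212 (0.22). At P2, 18 of 24 negative values turned positive, Tex15 (0.32) among them, and in the interaction 11 of 28 did. Of 30 positive age values, 16 turned negative: Syce2 (-0.21), Syce3 (-0.27), Smc1b (-0.12), Rad21l (-0.62), Spo11 (-0.31), Mei1 (-0.16), Hormad1 (-0.28), Trip13 (-0.59), Dmc1 (-0.61), Hsf2bp (-0.60), Tex15 (-0.51), Msh4 (-0.79), Msh5 (-0.55), Hfm1 (-0.93), Ythdc2 (-0.84) and Majin (-0.63). By construction this scale sets germ cell markers to no change. It moved the median log2 value of all genes to 0.76 at P7, 0.40 at P2 and -1.01 with age. The turned signs are to be read against these shifts. With scaling on Sertoli markers, 31 members were lower at P7, Mlh3 among them (-0.33), and 17 passed the interaction with a lower value, where 30.1% of all genes did.

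Without the low-count filter 1 member (Rec8) was lower at P2, where 0.520% of all genes were, and 8 passed the interaction, where 1.12% of all genes were lower. DESeq2 called 4 in the interaction, where 2.06% of all genes passed with a lower value. The cause was not tested. Leaving out single samples gave counts that ranged from 0 to 0 at P2, from 14 to 20 at P7, from 20 to 25 for the rise with age and from 0 to 2 in the interaction. With the replicate block, 0 members were called at P2, 24 were lower at P7 and 5 (M1ap, Syce2, Mei1, Mei4, Dmc1) passed the interaction, where 1.95% of all genes were lower. At P2 same-numbered samples correlated at 0.0982 to 0.332, the lowest under 0.1, so they did not meet the rule used at P7. Their mean correlation was 0.183, against -0.0911 for samples of different numbers, where the P7 means were 0.222 and -0.109. What the number stands for was not tested at either age. Pramef12 Het sample 1 correlated best with Pramef12 Null sample 2. RLE size factors and fits of all 12 samples changed no count by more than 1.5 times. At a threshold of 0.05, 16 of the 20 calls at P7 and 20 of the 24 calls with age remained. The share of all genes at that threshold is not given here, so these counts are not set against it. Members with few counts, such as Mei4 and Spo11, have wide errors, and Meiob could not be tested.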
